A study of Mus musculus with 11 samples.

Results

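The mitosis and spindle genes are a list of 60 genes, named by symbol, whose products drive chromosomes through division, and they were read here across 4 groups of mouse effector T cells on 11 arrays. Of the 60, 53 had a row with their own single symbol among the 16673 probe sets of the deposited table. Plk1 was the 1 member with more than 1 such row, and its brighter row was used. Ccnb1, Cenpf, Cenpi and Ncapg matched no such row and were not analysed here, Foxm1 occurred only on a probe set shared with other symbols, and Sgol1 and Sgol2 were found only under their newer symbols Sgo1 and Sgo2a. All counts below are over the 53.

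Naive CD44lo T cells of the spleen had been stimulated with irradiated antigen-presenting cells, anti-CD3 and anti-CD28 under conditions that drive T helper 1 differentiation (IL-2, IL-12 and antibody to IL-4), and the resulting effectors were sorted by surface CD4 and CD8 on day 4. The Thpok-deficient cells carried the genotype Thpok f/f CD2cre, in which the floxed gene for Thpok (Zbtb7b), a transcription factor of the CD4 helper lineage, is deleted by a Cre recombinase driven by CD2 regulatory sequence, which is active throughout the lymphoid lineage. They started as CD4 cells and gave the groups Thpok-deficient CD4+CD8+ (3 arrays) and Thpok-deficient CD4+CD8- (3 arrays), called mutant CD4+CD8+ and mutant CD4+CD8- cells below. The other groups were wild-type CD4-CD8+ cells, called CD8 cells below (2 arrays), and wild-type CD4+CD8- cells (3 arrays). All 4 groups shared the culture, its cytokines and its feeder cells. The labels call the arrays biological replicates of 2 cell preparations without saying which array came from which, so p-values measure the spread between these arrays only. The design compares mutant cells of both sorts, and CD8 cells, with wild-type CD4+CD8- cells.

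Division begins when cyclin A and cyclin B activate the kinase Cdk1, and the Polo and Aurora kinases then build the spindle. Kinetochores attach chromosomes to its microtubules while the checkpoint proteins hold back the anaphase-promoting complex, and motors, condensins and cytokinesis proteins separate the chromosomes and the cells. Most of these genes are transcribed late in the cell cycle, in G2 and M. In activated T cells their transcript level is widely used as a sign of how many cells are dividing, and the protein of Mki67 is the standard proliferation marker.

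Late cell cycle promoters are known for 2 short elements: the cell cycle genes homology region, or CHR, whose core TTTGAA is bound by MuvB complexes, and the CCAAT box, bound by NF-Y. RefSeq promoter windows of the build GRCm38.p6, which run from 250 bases before to 50 after each annotated start, were searched on both strands for TTTGAA, whose reverse complement is TTCAAA, and for CCAAT, whose reverse complement is ATTGG. Neither motif contains the other. Windows were on hand for 45 of the 53 members. Ccna2, Cdc25c, Aurkb, Incenp, Spc24, Kif20a, Tpx2 and Smc4 were not among them. The following 7 windows come from the members with 1 window and with both elements close upstream, and they show the spacing of the elements. Each is the 80 bases just before the start to which the window belongs. For Espl1, Kif22 and Top2a the next base is not the annotated start of the gene itself. Capitals mark each TTTGAA or CCAAT match on either strand.
Cdk1 (chr10:69352913-69352992, minus strand): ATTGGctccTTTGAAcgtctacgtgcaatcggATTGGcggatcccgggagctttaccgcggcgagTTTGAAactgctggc
Cdc20 (chr4:118437344-118437423, minus strand): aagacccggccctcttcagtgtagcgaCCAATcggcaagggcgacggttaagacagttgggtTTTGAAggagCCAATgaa
Ube2c (chr2:164769849-164769928, plus strand): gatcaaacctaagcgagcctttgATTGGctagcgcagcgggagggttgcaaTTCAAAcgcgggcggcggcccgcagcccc
Espl1 (chr15:102296213-102296292, plus strand): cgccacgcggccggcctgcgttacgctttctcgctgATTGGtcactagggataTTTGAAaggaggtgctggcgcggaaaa
Kif11 (chr19:37376302-37376381, plus strand): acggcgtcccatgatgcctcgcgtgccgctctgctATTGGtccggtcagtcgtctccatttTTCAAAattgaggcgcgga
Kif22 (chr7:127042421-127042500, minus strand): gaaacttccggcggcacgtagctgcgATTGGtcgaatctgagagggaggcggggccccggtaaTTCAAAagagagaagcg
Top2a (chr11:99024190-99024269, minus strand): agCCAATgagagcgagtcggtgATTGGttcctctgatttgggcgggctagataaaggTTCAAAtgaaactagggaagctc
The next 3 windows come from members that carried neither element anywhere in their window, 9 in all, and are shown because these 3 genes return below among the members with the largest differences.
Mad2l1 (chr6:66535141-66535220, plus strand): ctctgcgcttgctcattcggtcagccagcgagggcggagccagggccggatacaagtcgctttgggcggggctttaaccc
Nusap1 (chr2:119618218-119618297, plus strand): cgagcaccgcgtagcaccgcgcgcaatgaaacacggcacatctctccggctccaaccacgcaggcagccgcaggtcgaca
Ncaph (chr2:127133955-127134034, minus strand): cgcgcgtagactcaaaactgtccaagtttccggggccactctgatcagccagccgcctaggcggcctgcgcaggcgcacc

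TTTGAA was found in the windows of 31 of 45 members, or 68.9%, against 20.2% of all 27025 genes with a window. CCAAT was found in 31 members as well, 68.9% against 41.1%, and both together in 26 members, 57.8% against 7.97%. Among 40 further mitosis genes with a window, 45.0% held TTTGAA and 57.5% held CCAAT. Among 36 replication and S phase genes with a window, 16.7% held TTTGAA and 52.8% held CCAAT. The 2 elements lay in different places: 28 of the 31 members had a TTTGAA match within 50 bases of the start, and 21 of the 45 matches lay after it, while 75 of 78 CCAAT matches lay before it. The windows hold 250 bases before the start and 50 after it, so their shape alone favours matches before it. A match is a description of letters and shows no binding.

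**Figure D1:**
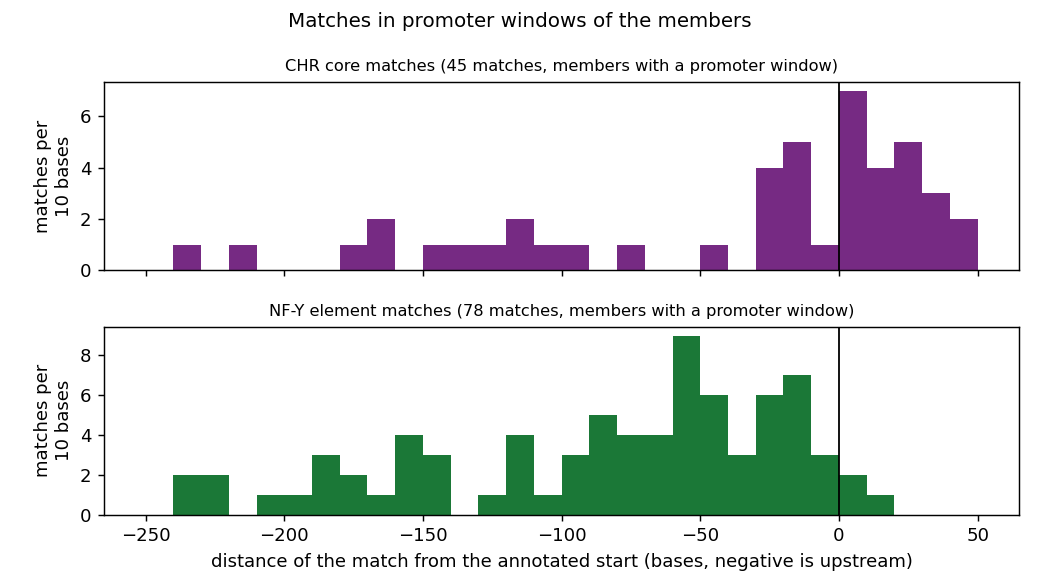
Histogram of the distance in bases between each match and the annotated start, for TTTGAA (CHR core, upper panel) and CCAAT (NF-Y element, lower panel) in the windows of the 45 members. A gene with overlapping windows can count a match more than once. The CHR matches crowd around the start, with 11 of 45 within 50 bases before it and 21 after it, and the NF-Y matches lie almost all upstream. Most of each window is upstream too.

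Zbtb7b itself read 6.79, 6.30 and 6.996 in mutant CD4+CD8+ cells, 6.77, 6.77 and 7.17 in mutant CD4+CD8- cells, 6.89 and 7.23 in CD8 cells, and 8.70, 8.55 and 8.03 in wild-type CD4+CD8- cells, on the log2 scale of the deposited signal. The wild-type CD4+CD8- arrays were higher than all others. T cell markers were present on every array, with Cd3e between 11.50 and 12.05. Cd4 was between 4.43 and 5.20 in CD8 cells, and averaged 9.76, 9.64 and 10.28 in mutant CD4+CD8+, mutant CD4+CD8- and wild-type CD4+CD8- cells. Cd8a read 4.49, 4.78 and 6.14 in wild-type CD4+CD8- cells. It was higher on every mutant CD4+CD8- array, at 7.50, 6.41 and 6.99, and averaged 9.91 in mutant CD4+CD8+ cells. Among B cell and myeloid markers, Ms4a1 lay between 2.96 and 4.18 and Adgre1 between 3.10 and 4.07. Cd68 averaged 8.30, 8.24 and 8.43 in mutant CD4+CD8+, mutant CD4+CD8- and CD8 cells, against 7.21 in wild-type CD4+CD8- cells, and Cd79b averaged 6.33, 5.52 and 7.69, against 4.99. The median of 809 olfactory, vomeronasal and trace amine receptor probe sets served as the background of an array. It lay between 3.26 and 3.68 on 9 arrays, at 4.21 on mutant CD4+CD8+ replicate 3 and at 4.79 on wild-type CD4+CD8- replicate 3. These 2 arrays also had the smallest spread of all values, with an SD of 1.70 and 1.54 against 1.94 to 2.06 elsewhere. The main results below are therefore given with all 11 arrays and with the 9 arrays that remain without them, and most single members have their 9-array differences beside those of the 11.

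The members were high in 3 of the 4 groups and lower, by their medians, in wild-type CD4+CD8- cells. Their median signal was 7.97, 8.32 and 7.72 in mutant CD4+CD8+ cells. It was 8.37, 8.15 and 7.67 in mutant CD4+CD8- cells and 8.01 and 7.70 in CD8 cells. In wild-type CD4+CD8- cells it was 6.90, 7.64 and 5.42. All 3 wild-type CD4+CD8- arrays thus lay below the other 8, replicate 2 by a narrow margin and replicate 3 by a wide one. Within its own array, the median member stood at the 78.3rd to 87.6th percentile of all probe sets in the other groups, and at the 68.2nd, 78.1st and 36.8th percentile in wild-type CD4+CD8- replicates 1, 2 and 3. On replicate 3, 33 members were within 1 log2 unit of the background and 10 were at or below it, against at most 1 member within 1 unit and none below on any other array. The 10 were Plk4, Bub1, Cenpe, Cenpk, Kif15, Kif18a, Kif20b, Aspm, Hmmr and Mki67. In bulk RNA, fewer dividing cells and less of these transcripts per cell cannot be told apart.

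**Figure D2:**
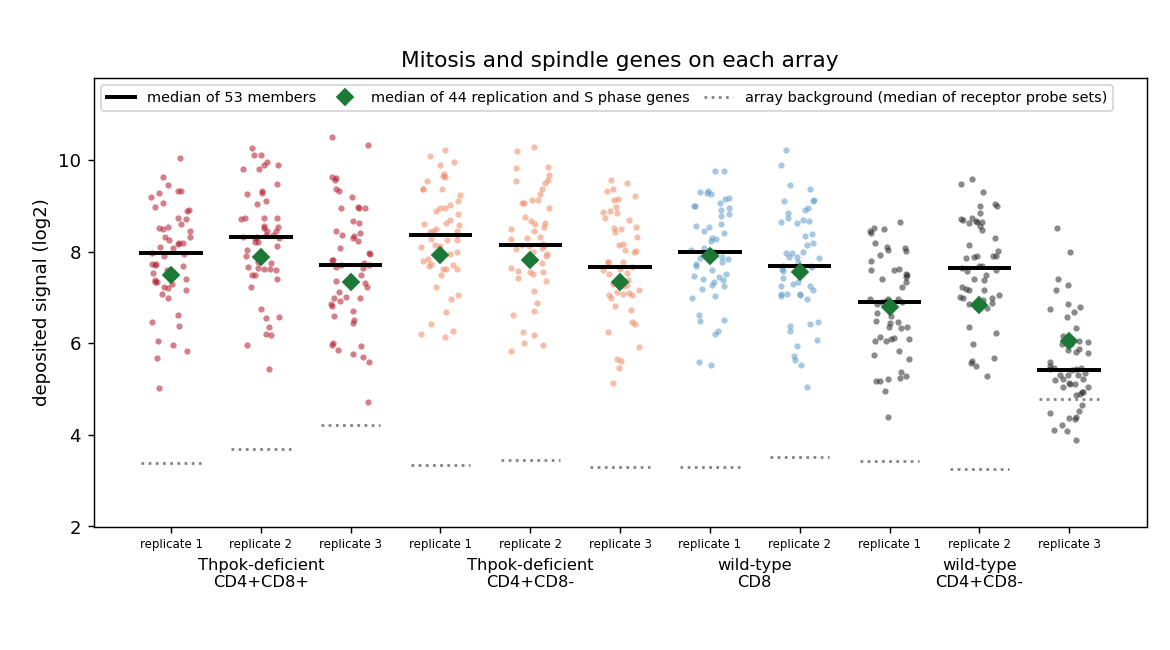
Deposited log2 signal (vertical axis) of the 53 members on each of the 11 arrays (1 point a gene), with the median of the members (bar), the median of 44 replication and S phase genes (diamond) and the array's background (dotted line). The members' median is 7.67 to 8.37 on the 8 arrays of the other groups and 6.90, 7.64 and 5.42 on the wild-type CD4+CD8- arrays. The dotted background is highest on wild-type CD4+CD8- replicate 3, where 10 points touch or fall under it.

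Gene by gene, wild-type CD4+CD8- replicate 3 was below all 8 arrays of the other groups for 51 of 53 members, replicate 1 for 49 and replicate 2 for 22. The same was true of 22.8%, 10.0% and 16.6% of all probe sets. For 22 members all 3 arrays lay below the other 8, against 3.87% of probe sets. These were Ccna2, Ccnb2, Plk1, Aurka, Melk, Bub1, Mad2l1, Aurkb, Cdca8, Espl1, Kif2c, Kif4, Kif11, Kif15, Kif20a, Kif23, Nusap1, Tpx2, Anln, Racgap1, Ncapd2 and Ncaph. They include kinases, checkpoint proteins, motors and condensin subunits, and none of the centromere and kinetochore group. The highest array of a member was most often mutant CD4+CD8- replicate 1 (25 members) or mutant CD4+CD8+ replicate 2 (16 members).

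**Figure D3:**
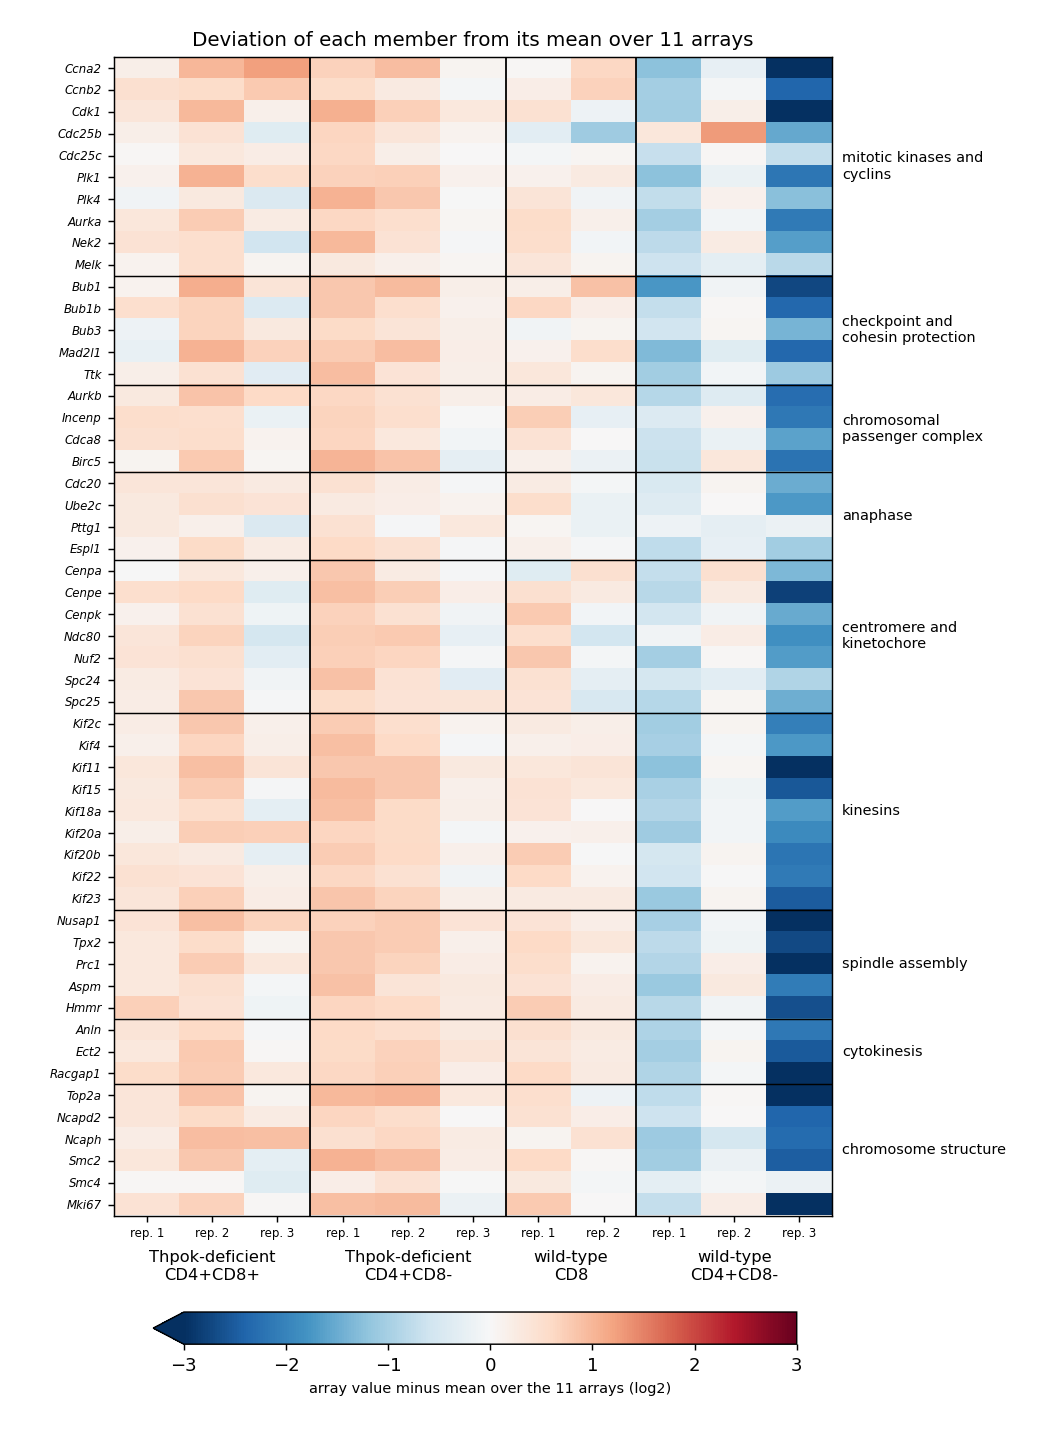
Heat map of the 53 members (rows, by role) on the 11 arrays (columns, by group), with colour for the array's value minus the gene's mean over the 11 arrays in log2 units. The colour scale ends at -3, and the lowest deviation is -3.33. Wild-type CD4+CD8- replicate 3 is blue for nearly all rows, replicate 1 is paler blue, and replicate 2 is close to the mean except for a high Cdc25b. Pttg1 and Smc4 stay near their means.

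In the fit of all 11 arrays, the members' median difference, set against wild-type CD4+CD8- cells, was 1.26 in mutant CD4+CD8+ cells, 1.42 in mutant CD4+CD8- cells and 1.26 in CD8 cells, or 2.40-, 2.67- and 2.40-fold. Over all probe sets the medians were 0.00, -0.15 and -0.14, and over 3185 probe sets in the same range of mean signal as the middle of the members (6.98 to 8.35) they were 0.04, 0.21 and 0.20. The difference was above 0 for 53, 53 and 52 of the 53 members. The same was true of 50.4%, 36.5% and 37.5% of all probe sets, and of 53.8%, 73.2% and 67.8% of those in that range of signal. The 3 comparisons share the wild-type CD4+CD8- arrays, so they are not independent of each other. Beside the members, the median difference of 7 B cell markers was -0.04, -0.37 and -0.28 in the same order. That of 7 myeloid markers was 0.02, -0.27 and -0.28. Above 0 were 3, 1 and 1 of the B cell markers and 4, 1 and 1 of the myeloid markers. Cd79b and Cd68 had the highest differences of their lists. Other markers went the opposite way: Fcgr3 averaged 5.40, 5.43 and 5.04 against 6.32 in wild-type CD4+CD8- cells, and Itgam 5.70, 5.38 and 5.84 against 6.16. The part of these markers in the members' difference was not tested.

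No member passed limma's test at an adjusted p of 0.05 in any of the 3 comparisons, with percentages of all probe sets called of 0.204% for mutant CD4+CD8+ cells, 0.084% for mutant CD4+CD8- cells and 0.534% for CD8 cells. The smallest adjusted p of a member was 0.084, 0.133 and 0.154 in the same order of groups, each for Ncaph. An unadjusted p below 0.05 with a higher level was reached by 43 members in mutant CD4+CD8+ cells (5.36% of all probe sets), 48 in mutant CD4+CD8- cells (7.39%) and 34 in CD8 cells (7.76%). Every array of the group was above every wild-type CD4+CD8- array for 28 members in mutant CD4+CD8+ cells (5.93% of all probe sets), for 37 in mutant CD4+CD8- cells (10.9%) and for 31 in CD8 cells (11.2%). A test of any difference among the 4 groups, limma's F-test, called 0 of 53 members and 0.246% of all probe sets, with 37 members (8.07% of all probe sets) at an unadjusted p below 0.05.

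With the 9 arrays the medians were 0.90 in mutant CD4+CD8+ cells, 0.92 in mutant CD4+CD8- cells and 0.68 in CD8 cells, against 0.05, -0.03 and -0.01 over all probe sets. Above 0 were 52, 52 and 51 members, and 9890, 6881 and 8009 of all 16673 probe sets. Again no member was called, where 0.168%, 0.234% and 1.61% of all probe sets were. The smallest adjusted p of a higher member was 0.125 in both mutant groups and 0.12 in CD8 cells, each time that of Ncaph, with Aurkb level in mutant CD4+CD8+ cells. In CD8 cells the smallest adjusted p of any member, 0.091, was that of Cdc25b, which was lower there. An unadjusted p below 0.05 with a higher level was reached by 36 members (5.71% of all probe sets), 40 members (6.39%) and 20 members (7.49%). Every array of the group was above every wild-type CD4+CD8- array for 47 members in mutant CD4+CD8+ cells (21.7% of all probe sets), 37 in mutant CD4+CD8- cells (13.7%) and 31 in CD8 cells (17.1%). Leaving out wild-type CD4+CD8- replicate 3 alone lowered the 3 medians to 0.73, 0.92 and 0.68.

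**Figure D4:**
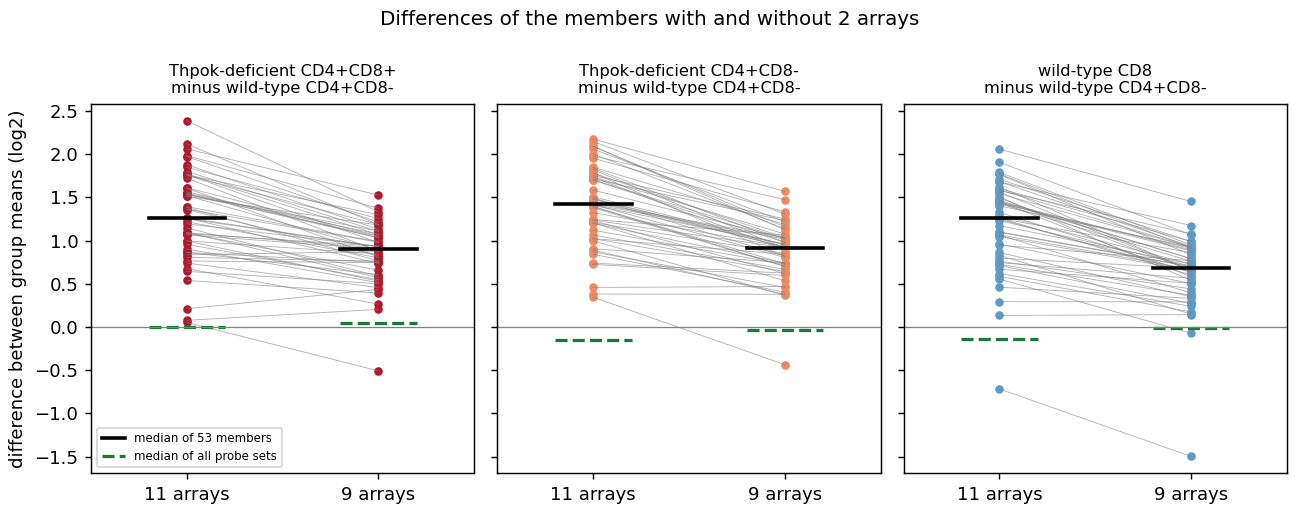
Difference in mean log2 signal from wild-type CD4+CD8- cells (vertical axis) for each of the 53 members, from all 11 arrays (left in each panel) and from 9 arrays without replicate 3 of the wild-type CD4+CD8- and mutant CD4+CD8+ groups (right). Thin lines join a gene's values, black bars are medians of the members (1.26, 1.42 and 1.26 with 11 arrays, 0.90, 0.92 and 0.68 with 9), and dashed bars are medians of all probe sets. Most points move down but remain above the dashed bars, except for Cdc25b at the bottom and, in CD8 cells with 9 arrays, Ndc80.

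How many members pass depended on the model. Same-numbered replicates of mutant CD4+CD8+ and wild-type CD4+CD8- cells deviated together (correlations of 0.429 to 0.724 over probe sets). Pairs with different numbers had a median of -0.414, but mutant CD4+CD8+ replicate 1 and wild-type CD4+CD8- replicate 2 reached 0.524. The value of 0.724 joined the replicates 3, the 2 arrays with the smallest spread. Whether the numbers mark a shared preparation was not tested. With these numbers as a block 3 members rose in mutant CD4+CD8+ cells: Plk1, Bub1 and Ncaph (0.516% of all probe sets called). The same block called 11 members in mutant CD4+CD8- cells (1.58% of all probe sets), where same-numbered pairs had correlations of -0.256 to 0.212. With weights for array quality, which gave wild-type CD4+CD8- replicate 3 a weight of 0.085 and replicate 1 a weight of 4.27, 42 members were called in mutant CD4+CD8+ cells (11.9% of all probe sets), 46 in mutant CD4+CD8- cells (12.5%) and 3 in CD8 cells (2.61%): Melk, Anln and Ncaph. Its F-test called 38 members (7.66% of all probe sets). That fit rests chiefly on wild-type CD4+CD8- replicate 1, the array on which 49 members were below all arrays of the other groups.

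Among the mitotic kinases and cyclins, 10 members had median differences of 1.20 in mutant CD4+CD8+ cells, 1.33 in mutant CD4+CD8- cells and 1.18 in CD8 cells, and 0.92, 0.86 and 0.63 with 9 arrays. Ccnb2, a B-type cyclin of Cdk1, had the highest mean signal. It read 10.04, 10.11 and 10.35 in mutant CD4+CD8+ cells, 10.10, 9.83 and 9.51 in mutant CD4+CD8- cells, 9.76 and 10.24 in CD8 cells, and 8.53, 9.49 and 7.17 in wild-type CD4+CD8- cells. Its highest wild-type CD4+CD8- value lay just under the lowest value elsewhere. Ccna2, the cyclin A of somatic cells, had the largest difference of all members in mutant CD4+CD8+ cells. It read 9.47, 10.28 and 10.52 there, 9.97, 10.20 and 9.38 in mutant CD4+CD8- cells, 9.31 and 9.91 in CD8 cells, and 8.05, 9.04 and 6.02 in wild-type CD4+CD8- cells. The wild-type CD4+CD8- arrays did not overlap the others but were far apart among themselves. The differences of Ccna2 were 2.39 ± 0.62 (SE; adjusted p = 0.167), 2.15 ± 0.62 (adjusted p = 0.214) and 1.91 ± 0.69 (adjusted p = 0.298) in the mutant CD4+CD8+, mutant CD4+CD8- and CD8 comparisons, and 1.33, 1.31 and 1.07 with 9 arrays.

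Plk1, the Polo kinase that acts at centrosomes, kinetochores and the midbody, averaged 9.42 ± 0.46 in mutant CD4+CD8+ cells, 9.37 ± 0.33 in mutant CD4+CD8- cells, 9.06 ± 0.09 in CD8 cells and 7.66 ± 0.98 in wild-type CD4+CD8- cells (SD, n = 3, 3, 2 and 3). Its differences were 1.76 ± 0.42, 1.71 ± 0.42 and 1.40 ± 0.47 (SE; adjusted p = 0.138, 0.161 and 0.249), and 1.30, 1.23 and 0.92 with 9 arrays. The second probe set of Plk1 was opposite in sign. It was dimmer, with a mean of 4.67 against 8.86 for the one used, and had differences of -0.27, -0.36 and -0.23 (adjusted p = 0.976, 0.557 and 0.670). Melk, a kinase of proliferating cells, was dimmer at 6.09 ± 0.23, 6.02 ± 0.12, 6.08 ± 0.19 and 5.28 ± 0.26 in the same order, and its difference in mutant CD4+CD8+ cells was 0.76 with 9 arrays and 0.81 with 11. Cdc25b, a phosphatase that activates Cdk1, departed furthest from the other members. It read 8.49, 8.75 and 7.96 in mutant CD4+CD8+ cells, 8.97, 8.68 and 8.43 in mutant CD4+CD8- cells, 8.01 and 7.26 in CD8 cells, and 8.66, 9.60 and 6.79 in wild-type CD4+CD8- cells. Its highest and its lowest value were both on wild-type CD4+CD8- arrays. The differences were 0.05 ± 0.57, 0.34 ± 0.57 and -0.72 ± 0.63 (SE), and -0.51, -0.44 and -1.50 with 9 arrays, with an adjusted p of 0.659 or more in the 11-array fit and of 0.663, 0.713 and 0.091 with 9 arrays.

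The 5 measured checkpoint members had medians of 1.26 in mutant CD4+CD8+ cells, 1.49 in mutant CD4+CD8- cells and 1.43 in CD8 cells, and 0.93, 1.06 and 0.77 with 9 arrays. Mad2l1, which encodes the Mad2 protein that inhibits Cdc20 at unattached kinetochores, led in signal. It read 8.72, 9.97 and 9.62 in mutant CD4+CD8+ cells, 9.71, 9.86 and 9.13 in mutant CD4+CD8- cells, 9.07 and 9.46 in CD8 cells, and 7.61, 8.57 and 6.58 in wild-type CD4+CD8- cells. Bub1, a kinase at kinetochores that recruits the shugoshins through histone phosphorylation, had the largest member difference in mutant CD4+CD8- cells and in CD8 cells. It read 7.22, 8.21 and 7.50 in mutant CD4+CD8+ cells, 7.93, 8.07 and 7.28 in mutant CD4+CD8- cells, 7.29 and 7.99 in CD8 cells, and 5.37, 7.01 and 4.37 in wild-type CD4+CD8- cells. In both genes every wild-type CD4+CD8- array lay under all others, with replicate 2 nearest. Bub1 differed by 2.06 ± 0.56, 2.17 ± 0.56 and 2.06 ± 0.62 (SE; adjusted p = 0.187, 0.173 and 0.196), and by 1.53, 1.57 and 1.45 with 9 arrays. Mad2l1 differed by 1.85, 1.98 and 1.68, and by 1.25, 1.48 and 1.17 with 9 arrays. Without wild-type CD4+CD8- replicate 2, Bub1 was the 1 member called in the mutant CD4+CD8+ and CD8 comparisons. The array left out there had the highest members' median of its group, 7.64. The share of all probe sets called in that fit is not given here, so the call has no reference beside it.

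Bub3, the partner of Bub1 and of Bub1b, differed less, at 8.93 ± 0.40 in mutant CD4+CD8+ cells, 9.05 ± 0.19 in mutant CD4+CD8- cells, 8.65 ± 0.13 in CD8 cells and 8.03 ± 0.73 in wild-type CD4+CD8- cells (SD). Its differences were 0.90, 1.02 and 0.62, and 0.51, 0.64 and 0.24 with 9 arrays. Bub1b, which encodes BubR1, a component of the complex that inhibits the anaphase-promoting complex, differed by 1.26, 1.49 and 1.43, and by 0.93, 0.82 and 0.76 with 9 arrays. The shugoshins, which protect cohesin at the centromere, were read only under their newer symbols and stand outside the 53. Sgo1 differed by 0.84 ± 0.34, 1.08 ± 0.34 and 0.76 ± 0.38 and Sgo2a by 1.75 ± 0.38, 1.59 ± 0.38 and 1.55 ± 0.42 (SE), with an adjusted p of 0.106 or more.

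The chromosomal passenger complex, which corrects wrong attachments and later marks the cleavage site, was measured in full by 4 members with medians of 1.17 in mutant CD4+CD8+ cells, 1.29 in mutant CD4+CD8- cells and 1.05 in CD8 cells (0.79, 0.71 and 0.52 with 9 arrays). Its kinase Aurkb read 9.34, 9.90 and 9.65 in mutant CD4+CD8+ cells, 9.66, 9.50 and 9.22 in mutant CD4+CD8- cells, 9.27 and 9.38 in CD8 cells, and 8.19, 8.67 and 6.76 in wild-type CD4+CD8- cells. The wild-type CD4+CD8- arrays lay apart below the rest, and the differences were 1.75 ± 0.40, 1.58 ± 0.40 and 1.45 ± 0.45 (SE; adjusted p = 0.121, 0.169 and 0.205), and 1.19, 1.03 and 0.89 with 9 arrays. Cdca8, which encodes borealin, differed by 1.19, 1.12 and 1.05, and by 0.93, 0.72 and 0.65 with 9 arrays. The scaffold Incenp differed by 1.09, 1.20 and 1.06, but 0.66, 0.53 and 0.39 with 9 arrays, and its groups overlapped.

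Anaphase genes showed some of the smallest differences, with medians over 4 members of 0.98 in mutant CD4+CD8+ cells, 0.87 in mutant CD4+CD8- cells and 0.73 in CD8 cells (0.56, 0.43 and 0.31 with 9 arrays). Cdc20, which activates the anaphase-promoting complex, read 9.29, 9.27 and 9.20 in mutant CD4+CD8+ cells, 9.38, 9.14 and 8.89 in mutant CD4+CD8- cells, 9.16 and 8.85 in CD8 cells, and 8.47, 9.003 and 7.42 in wild-type CD4+CD8- cells. Its wild-type CD4+CD8- replicate 2 reached into the range of the mutant CD4+CD8- and CD8 arrays. The differences were 0.96 ± 0.33, 0.84 ± 0.33 and 0.71 ± 0.37 (SE; adjusted p = 0.323, 0.402 and 0.532), and 0.55, 0.40 and 0.27 with 9 arrays. Ube2c, the ubiquitin-conjugating enzyme of that complex, differed by 1.09, 0.89 and 0.86, and Espl1, the protease separase that cuts cohesin, by 1.00, 1.02 and 0.74. With 9 arrays Ube2c differed by 0.57, 0.38 and 0.35, and Espl1 by 0.85, 0.84 and 0.56. Pttg1, which encodes securin, the inhibitor of separase, averaged 8.18 ± 0.38 in mutant CD4+CD8+ cells, 8.43 ± 0.25 in mutant CD4+CD8- cells, 8.11 ± 0.19 in CD8 cells and 7.97 ± 0.07 in wild-type CD4+CD8- cells (SD), the last from 8.03, 7.90 and 7.99, with no low value on replicate 3. Its differences were 0.21, 0.46 and 0.13, with a limma adjusted p of 0.9997 in mutant CD4+CD8+ and 0.509 in mutant CD4+CD8- cells. With 9 arrays they were 0.43, 0.47 and 0.14.

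Centromere and kinetochore genes, 7 members, had medians of 0.86 in mutant CD4+CD8+ cells, 1.06 in mutant CD4+CD8- cells and 0.72 in CD8 cells (0.75, 0.74 and 0.51 with 9 arrays). Cenpa, the histone H3 variant that marks centromeres, read 8.20, 8.54 and 8.37 in mutant CD4+CD8+ cells, 9.03, 8.46 and 8.18 in mutant CD4+CD8- cells, 7.85 and 8.70 in CD8 cells, and 7.51, 8.69 and 6.87 in wild-type CD4+CD8- cells. The second wild-type array was among the highest of all for this gene, so the groups overlapped. Its differences were 0.68 ± 0.42, 0.87 ± 0.42 and 0.59 ± 0.47 (SE; adjusted p = 0.811, 0.511 and 0.652), and 0.26, 0.46 and 0.17 with 9 arrays. Ndc80 and Nuf2 encode the microtubule-binding pair of the outer kinetochore. Nuf2 differed by 1.08, 1.32 and 1.26, and 0.94, 0.93 and 0.86 with 9 arrays. Ndc80 differed by 0.74, 1.00 and 0.55, and 0.46, 0.37 and -0.07 with 9 arrays. The difference between the pair was not tested.

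The 9 kinesins, motors that slide, move or shorten spindle microtubules, had medians of 1.39 in mutant CD4+CD8+ cells, 1.43 in mutant CD4+CD8- cells and 1.25 in CD8 cells (0.99, 1.02 and 0.70 with 9 arrays). Kif11, the Eg5 motor that pushes spindle poles apart, read 8.92, 9.48 and 8.96 in mutant CD4+CD8+ cells, 9.37, 9.38 and 8.87 in mutant CD4+CD8- cells, 8.92 and 8.95 in CD8 cells, and 7.34, 8.63 and 5.46 in wild-type CD4+CD8- cells. Its 8 arrays of the other groups lay within a narrow band above all wild-type CD4+CD8- values, and the differences were 1.97 ± 0.60, 2.06 ± 0.60 and 1.79 ± 0.67 (SE; adjusted p = 0.247, 0.218 and 0.311), and 1.21, 1.22 and 0.95 with 9 arrays. Kif20a, which brings the passenger complex to the midzone, differed by 1.57, 1.41 and 1.17, and by 1.03, 0.96 and 0.73 with 9 arrays. Kif23, the motor of the centralspindlin complex, differed by 1.61, 1.74 and 1.45, and by 1.05, 1.08 and 0.79 with 9 arrays. All 9 had values above 0 in the 3 comparisons, between 0.99 and 2.06 with 11 arrays.

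Spindle assembly genes, 5 members, had medians of 1.54 in mutant CD4+CD8+ cells, 1.78 in mutant CD4+CD8- cells and 1.68 in CD8 cells (0.89, 0.98 and 0.83 with 9 arrays). Nusap1, a microtubule-bundling protein whose promoter window held neither element, read 9.33, 9.81 and 9.58 in mutant CD4+CD8+ cells, 9.63, 9.68 and 9.32 in mutant CD4+CD8- cells, 9.32 and 9.11 in CD8 cells, and 7.92, 8.85 and 5.59 in wild-type CD4+CD8- cells. No wild-type CD4+CD8- array reached the others. Its differences were 2.12 ± 0.62, 2.09 ± 0.62 and 1.77 ± 0.69 (SE; adjusted p = 0.230, 0.230 and 0.338), and 1.18, 1.16 and 0.83 with 9 arrays. Tpx2, which activates Aurora A on the spindle, differed by 1.52, 1.78 and 1.68, and Prc1, which cross-links the antiparallel microtubules of the midzone, by 1.72, 1.82 and 1.56. With 9 arrays Tpx2 differed by 0.89, 1.03 and 0.93, and Prc1 by 0.88, 0.91 and 0.65.

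The 3 cytokinesis genes had medians of 1.54 in mutant CD4+CD8+ cells, 1.70 in mutant CD4+CD8- cells and 1.47 in CD8 cells (1.03, 0.98 and 0.88 with 9 arrays). Racgap1, the centralspindlin partner of Kif23, read 8.90, 9.11 and 8.68 in mutant CD4+CD8+ cells, 8.96, 9.06 and 8.55 in mutant CD4+CD8- cells, 8.96 and 8.62 in CD8 cells, and 7.45, 8.31 and 5.30 in wild-type CD4+CD8- cells. The other 8 arrays spanned a small range above the wild-type CD4+CD8- values. Its differences were 1.88 ± 0.58, 1.84 ± 0.58 and 1.77 ± 0.65 (SE; adjusted p = 0.253, 0.256 and 0.300), and 1.13, 0.98 and 0.91 with 9 arrays. Ect2, the exchange factor that activates RhoA at the equator, differed by 1.54, 1.70 and 1.47, and Anln, the anillin that anchors the contractile ring, by 1.36, 1.51 and 1.43. With 9 arrays Ect2 differed by 1.03, 1.02 and 0.79, and Anln by 0.98, 0.95 and 0.88.

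Chromosome structure genes, 6 members with Mki67, had medians of 1.56 in mutant CD4+CD8+ cells, 1.77 in mutant CD4+CD8- cells and 1.52 in CD8 cells (0.89, 0.97 and 0.64 with 9 arrays). Top2a, the topoisomerase that untangles sister chromatids, read 9.63, 10.13 and 9.34 in mutant CD4+CD8+ cells, 10.23, 10.28 and 9.57 in mutant CD4+CD8- cells, 9.77 and 9.11 in CD8 cells, and 8.51, 9.30 and 6.00 in wild-type CD4+CD8- cells. Wild-type replicate 2 lay just under the mutant arrays and above one CD8 array. The differences of Top2a were 1.77 ± 0.66, 2.09 ± 0.66 and 1.51 ± 0.74 (SE; adjusted p = 0.376, 0.260 and 0.489), and 0.98, 1.12 and 0.54 with 9 arrays. Mki67, whose protein coats mitotic chromosomes, read 8.11, 8.36 and 7.72 in mutant CD4+CD8+ cells, 8.58, 8.63 and 7.51 in mutant CD4+CD8- cells, 8.46 and 7.70 in CD8 cells, and 6.96, 7.89 and 4.52 in wild-type CD4+CD8- cells. Here wild-type replicate 2 was above some arrays of every other group. Its differences were 1.61 ± 0.69, 1.78 ± 0.69 and 1.62 ± 0.77 (SE; adjusted p = 0.480, 0.384 and 0.470), and 0.81, 0.81 and 0.65 with 9 arrays.

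Condensins compact the chromosomes. Ncaph, a condensin I subunit with no TTTGAA or CCAAT in its window, had the smallest p of all members in the 3 comparisons with 11 arrays. It averaged 8.20 ± 0.40 in mutant CD4+CD8+ cells, 7.97 ± 0.18 in mutant CD4+CD8- cells, 7.80 ± 0.26 in CD8 cells and 6.22 ± 0.91 in wild-type CD4+CD8- cells (SD), with differences of 1.98 ± 0.39, 1.75 ± 0.39 and 1.58 ± 0.43 (SE), and 1.37, 1.25 and 1.08 with 9 arrays. Ncapd2, another subunit of condensin I, differed by 1.38, 1.40 and 1.33, and by 0.76, 0.70 and 0.63 with 9 arrays. Smc2 and Smc4 together form the ATPase core that condensins I and II share. Smc2, named after its values were seen, averaged 7.69 ± 0.55 in mutant CD4+CD8+ cells, 8.13 ± 0.44 in mutant CD4+CD8- cells, 7.72 ± 0.41 in CD8 cells and 6.18 ± 1.16 in wild-type CD4+CD8- cells (SD). It differed by 1.51, 1.95 and 1.54, and by 1.18, 1.33 and 0.92 with 9 arrays. Smc4 averaged 8.61 ± 0.22, 8.91 ± 0.22, 8.82 ± 0.25 and 8.53 ± 0.12 in the same order of groups (SD). Its differences were 0.08 ± 0.19, 0.38 ± 0.19 and 0.29 ± 0.22 (SE), and 0.20, 0.38 and 0.29 with 9 arrays. As for Pttg1, replicate 3 of the wild-type CD4+CD8- group was not low (8.41, 8.65 and 8.53).

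Between the 3 groups other than wild-type CD4+CD8-, the members differed little. The median difference was -0.14 for mutant CD4+CD8+ over mutant CD4+CD8- cells (14 of 53 above 0), 0.10 for mutant CD4+CD8+ over CD8 cells (36 above 0) and 0.24 for mutant CD4+CD8- over CD8 cells (48 above 0). Probe sets in the members' range of mean signal had medians of -0.197, -0.175 and 0.033, with 22.9%, 26.4% and 55.2% above 0. With 9 arrays the first 2 medians of the members were 0.00 and 0.22. No member was called in these comparisons, where 0%, 0.006% and 0.018% of all probe sets were, and with 11 arrays none reached an unadjusted p below 0.05. Of all 16673 probe sets, 172, 210 and 169 reached it with a higher level and 166, 268 and 229 with a lower one. Between the mutant sorts, the lowest value was that of Plk4, the kinase of centriole duplication, at -0.70 (95% interval -1.54 to 0.14), and the highest that of Ccnb2 at 0.35 (-0.65 to 1.36). Cdc25b had the largest difference from CD8 cells in both mutant groups, at 0.77 (-0.62 to 2.16) in CD4+CD8+ and 1.06 (-0.33 to 2.46) in CD4+CD8- cells. For Top2a the mutant CD4+CD8+ and CD4+CD8- cells differed by -0.33 (-1.79 to 1.14), an interval that leaves room for differences of over 1 log2 unit either way.

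Other cell cycle lists give the range of the members' values. A list of 73 further mitosis genes, 49 of them measured, had medians of 0.95 in mutant CD4+CD8+ cells, 0.99 in mutant CD4+CD8- cells and 0.84 in CD8 cells (0.77, 0.71 and 0.49 with 9 arrays), with 0 called. The replication and S phase genes, 44 of 48 measured, had medians of 0.97, 1.17 and 1.16, and 0.87, 0.92 and 0.93 with 9 arrays. With 11 arrays 44 of 44 were above 0 in each comparison, against 50.4%, 36.5% and 37.5% of all probe sets. Of these S phase genes, Slbp, the histone mRNA binding protein, passed limma's test in mutant CD4+CD8- cells with 11 arrays (adjusted p = 0.029) but not with 9 (0.056). It averaged 4.78 there, and its means of 2.75 in mutant CD4+CD8+, 2.58 in CD8 and 2.50 in wild-type CD4+CD8- cells were all under the background, so the size of its difference is not given. With 9 arrays Pole, a DNA polymerase catalytic subunit, rose in the 3 comparisons (1.43, 1.36 and 1.45; adjusted p = 0.049, 0.033 and 0.017), and Tk1, thymidine kinase, rose in CD8 cells (1.60; adjusted p = 0.046). With 11 arrays neither passed limma's test. Pole differed by 1.79, 1.79 and 1.88 (adjusted p = 0.064, 0.067 and 0.0504) and Tk1 in CD8 cells by 2.19 (adjusted p = 0.082). G1 cyclins and kinases, 8 genes, had medians of 0.96, 0.86 and 0.96 (0.50, 0.54 and 0.50 with 9 arrays), and Cdk6, a cyclin D kinase, rose in CD8 cells (1.88 ± 0.35 SE, adjusted p = 0.046; 1.57 and 0.057 with 9 arrays).

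Further lists cover other machinery and the regulators of the cycle. The core of the anaphase-promoting complex, 12 of 13 measured, had medians of 0.15, 0.50 and 0.43 in mutant CD4+CD8+, mutant CD4+CD8- and CD8 cells, and 0.11, 0.30 and 0.20 with 9 arrays. Cohesin and its loaders, 9 of 10 measured, had medians of 0.14, 0.62 and 0.44 (0.14, 0.22 and 0.21 with 9 arrays). Regulators of G2 and M transcription, 11 of 13 measured, had medians of 0.37, 0.57 and 0.37 (0.25, 0.24 and 0.19 with 9 arrays), among them Mybl2, the B-Myb that joins MuvB in S phase, at 0.88, 0.88 and 0.99 (0.87, 0.83 and 0.94 with 9 arrays). Of 3 activator E2F genes, 2 were measured, with medians of 0.89, 0.70 and 0.90 (0.53, 0.26 and 0.46 with 9 arrays). Cell cycle brakes, 11 of 13 measured, had medians of -0.21, -0.04 and -0.30 (-0.18, -0.11 and -0.21 with 9 arrays). Cdkn1b, which encodes the inhibitor p27, differed by -1.15, -0.70 and -0.93, and Cdkn1a, which encodes p21, by 1.25, 0.80 and 2.54, with an adjusted p of 0.138 or more. With 9 arrays Cdkn1b differed by -1.11, -0.85 and -1.08, and Cdkn1a by 0.47, 0.10 and 1.83.

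**Figure D5:**
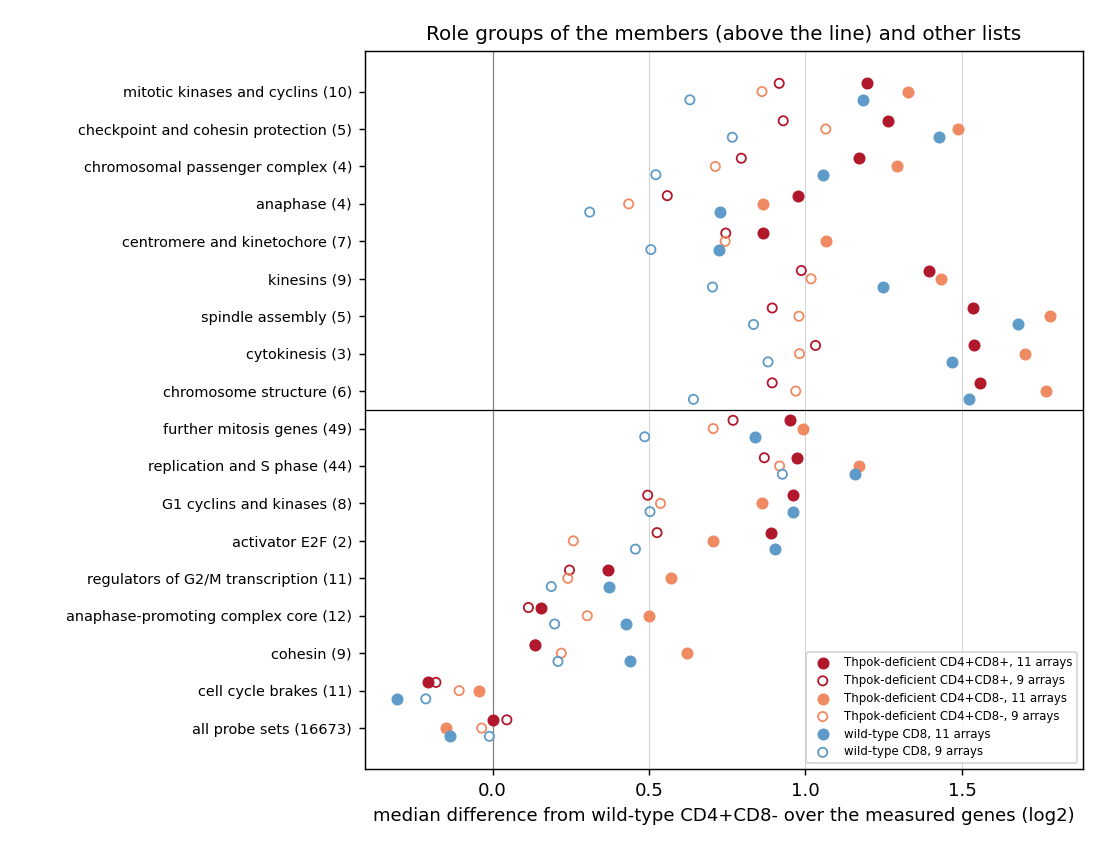
Median difference in log2 signal from wild-type CD4+CD8- cells (horizontal axis) over the measured genes of each list (number in brackets), for mutant CD4+CD8+, mutant CD4+CD8- and CD8 cells, with 11 arrays (filled) and 9 arrays (open). The role groups of the members run from 0.72 to 1.78 with 11 arrays and from 0.31 to 1.06 with 9, the cell cycle brakes lie below 0, and all probe sets lie near 0.

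On single arrays the mitosis and S phase genes did not always move by the same amount. The mean of the members minus the mean of the S phase genes was 0.38, 0.43 and 0.48 in mutant CD4+CD8+ cells, 0.47, 0.35 and 0.34 in mutant CD4+CD8- cells, 0.06 and 0.39 in CD8 cells, and -0.03, 0.91 and -0.25 in wild-type CD4+CD8- cells. Wild-type CD4+CD8- replicate 2 thus had the most mitosis signal for its S phase signal of all arrays, and replicates 1 and 3 the least. On replicate 3 the mean of the T cell markers was 9.59 against 10.06 to 10.47 on the other arrays, the mean of the B cell markers was 5.23 against 4.28 to 5.12, and the mean of the cell cycle brakes was 7.86 against 7.99 to 8.74. Without this array the members' median differences were smaller but above 0, as given above.

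Members with TTTGAA in the window (31) and without it (14) had median differences of 1.38 and 1.07 in mutant CD4+CD8+ cells, 1.48 and 1.35 in mutant CD4+CD8- cells, and 1.40 and 1.08 in CD8 cells. With 9 arrays they were 0.93 and 0.79, 0.92 and 0.91, and 0.70 and 0.67 in the same order. The members without the element included Bub1, Mad2l1, Nusap1 and Ncaph, with some of the largest differences, as well as Cdc25b and Pttg1, with some of the smallest. These medians are a description and were not tested.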

How the data were processed

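RNA from 11 samples in 4 groups was measured on arrays. Partek, RMA and the build mm9 are listed, with no versions, per the submitters' processing notes. An Affymetrix exon array is given in the design text but a 3' labelling kit in the label protocol, and which was used could not be settled. The deposited values are log2 signals, 1 per probe set. RMA as published makes array distributions alike, but the array SD ran from 1.54 to 2.06, and this was left as deposited. The table held 16673 probe sets, 14970 with 1 symbol, 1019 with several and 684 with none.

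The members and the other lists were chosen with earlier results of these data known. One limma 3.58.1 model (R 4.3.3) with 4 group coefficients was fitted to all 11 arrays (7 residual and 3.80 prior degrees of freedom), with Benjamini-Hochberg adjustment over all 16673 probe sets in each of 6 comparisons and a threshold of 0.05. The test was tried on simulated data first, for mutant CD4+CD8+ against wild-type CD4+CD8- cells. It called 28 of 100 probe sets changed by 1 log2 unit and 83 of 100 changed by 2 units, with 5 false calls. Differences near 1 unit were thus often missed in the simulation. It gave each probe set the same spread in all groups. The real spread can differ between groups, as for Ccna2, with an SD of 1.54 in wild-type CD4+CD8- cells. Its SD was 0.55 in mutant CD4+CD8+, 0.43 in mutant CD4+CD8- and 0.42 in CD8 cells. The simulated rates may therefore not hold for the members. Genes given with each array's value were Mki67, the member of highest mean in each role group and the members of largest and smallest difference; up to 3 members per role group and the 5 of smallest p in each comparison were given by means or differences.

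Replicate numbers were checked as pairs by the correlation of deviations from group means. All 3 pairs exceeded 0.1 for Thpok-deficient CD4+CD8+ against wild-type CD4+CD8- cells (median 0.65), so that blocked fit is given beside its result. A pair with different numbers reached 0.524 in the same comparison. Alternatives were 9 arrays, quantile normalization, median centring, array weights (gene by gene, since the REML estimate did not converge), the block, leaving out the dimmest 25% of probe sets, the other Plk1 probe set, newer symbols and leaving out each array. The number of arrays limits the precision.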

Additional observations from a re-analysis of the deposited data

How the results depend on the processing

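The members' median differences from wild-type CD4+CD8- cells stayed above 0 under all alternatives run, between 0.68 and 1.96. Of 81 recomputed medians over the 6 comparisons, 1 moved by more than the spread between replicates: mutant CD4+CD8+ over CD8 cells, 0.38 with the replicate block. The count of members called, 0 in the main model, was 42 (mutant CD4+CD8+), 46 (mutant CD4+CD8-) and 3 (CD8) with array weights, and 38 in the F-test with array weights, where 11.9%, 12.5%, 2.61% and 7.66% of all probe sets were called. With the replicate block it was 3 in mutant CD4+CD8+ and 11 in mutant CD4+CD8- cells (0.516% and 1.58% of all probe sets). In the second of these only 1 of 3 pairs exceeded 0.1, and the labels do not say whether the numbers mark a shared preparation. Leaving out each array gave 0 to 1 called in the mutant CD4+CD8+ and CD8 comparisons, the 1 being Bub1 without wild-type CD4+CD8- replicate 2. The share of all probe sets called without wild-type CD4+CD8- replicate 2 is not given here. Where 1 CD8 array remained, it was assumed to vary like the other groups.

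Of 1158 recomputed differences of 33 named members, 1075 kept their direction and side of the threshold, 69 passed it and 14 changed sign, none of them called. Cdc25b became -0.51 with 9 arrays and -0.089 with weights in mutant CD4+CD8+ cells (-0.73 to 0.68 leaving out each array), and -0.44 and -0.061 in mutant CD4+CD8- cells (-0.44 to 0.97). In CD8 cells Pttg1 became -0.094 with quantile normalization (-0.0003 to 0.27 leaving out each array), and Ndc80 became -0.073 with 9 arrays (-0.073 to 1.08). Plk1 became -0.27, -0.36 and -0.23 in mutant CD4+CD8+, mutant CD4+CD8- and CD8 cells with its other, dimmer probe set, an alternative for single members chosen after seeing the data (1.28 to 2.26, 1.23 to 2.21 and 0.92 to 1.90 leaving out each array). The causes were not tested. Signal over background limits the values on wild-type CD4+CD8- replicate 3, where 33 of 53 members were within 1 unit of the background.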
